A study of Homo sapiens with 6 samples.

Results

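The DEAD and DEAH box RNA helicases are the genes whose symbols consist of DDX or DHX followed by a number, with at most 1 further letter for DDX. That naming rule, which uses no measured value, found 53 of the 15794 rows in the authors' deposited table of differential expression, 37 with a DDX and 16 with a DHX symbol. The table compares polyadenylated RNA of eHAP cells, a haploid human line engineered from the near-haploid, leukaemia-derived line HAP1, between 2 groups of 3 samples that the labels call biological replicates. In the TFDP1 knockout group, eHAP cells expressing Cas9 received a plasmid with guide RNAs against TFDP1 and a puromycin resistance gene. The control group carries the label NC, is listed as wild-type with no gene knocked out, and shares the treatment protocol. All samples were selected with puromycin between 24 and 72 h and collected 5 days after transfection, and 500000 eHAP cells were mixed with 10000 Drosophila S2 cells before extraction. No cloning step is given, so a knockout sample may hold edited and unedited cells side by side. In such bulk RNA, fewer cells with a transcript and less transcript per cell cannot be told apart.

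DEAD and DEAH box proteins use ATP to bind, unwind or remodel RNA and RNA-protein complexes, and nearly every step in the life of an RNA has its own member. DEAD box proteins clamp onto short duplexes and pry them open locally, while DEAH box proteins pull along a strand. Both groups are named after the 4 amino acids of motif II in the helicase core, which binds the magnesium ion and ATP. TFDP1 encodes DP1, the partner with which E2F transcription factors bind DNA at genes of the cell cycle.

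To check the family names against sequence, motif II was looked for in the translated coding transcripts of GENCODE 29. Among the 37 DDX genes, 27 carried DEAD in the expected sequence context, 2 DECD, 2 DEVD, 2 DEVH, and 1 each DEAH, DECH and DESD. The 27 include DDX26B, now named INTS6L, a relative of an Integrator subunit. Whether its match, or any other, lies in a helicase core was not checked against protein annotation. Of the 16 DHX genes, 8 had DEAH, 4 DEVH, 2 DEIH and 1 DECH. No match was found in DHX32, and DDX12P is a pseudogene with no coding transcript. The coding DNA around motif II is shown for some of the called members, for paralogues compared below and for an example of most of the variant boxes. Each line runs 5′ to 3′ on the coding strand, and capitals mark the 12 bases that encode motif II.
DDX39A: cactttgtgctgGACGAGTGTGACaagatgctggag
DDX39B: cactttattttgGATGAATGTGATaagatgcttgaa
DDX3X: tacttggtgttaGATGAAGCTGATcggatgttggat
DDX5: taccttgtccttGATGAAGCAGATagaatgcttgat
DDX17: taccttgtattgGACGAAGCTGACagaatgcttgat
DDX19A: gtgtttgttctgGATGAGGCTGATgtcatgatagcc
DDX19B: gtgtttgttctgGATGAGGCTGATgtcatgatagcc
DDX21: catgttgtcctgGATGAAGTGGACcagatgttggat
DDX50: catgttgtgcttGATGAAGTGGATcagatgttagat
DHX9: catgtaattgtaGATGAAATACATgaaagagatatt
DHX15: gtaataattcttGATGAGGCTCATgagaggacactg
DHX34: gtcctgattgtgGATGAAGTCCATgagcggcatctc
DHX40: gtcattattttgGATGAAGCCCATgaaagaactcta
DDX11: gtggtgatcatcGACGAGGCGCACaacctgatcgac
These stretches lie in coding exons on GRCh38, at chr19:14410996-14411031 (minus strand) for DDX39A, chrX:41345181-41345216 (plus) for DDX3X, chr17:64503233-64503268 (minus) for DDX5 and chr1:182867005-182867040 (plus) for DHX9. The DDX19A and DDX19B lines are identical over all 36 bases, so a read confined to them could not be assigned to either gene. DDX39A and DDX39B encode the same box with different codons, as do DDX21 and DDX50.

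For each gene the table lists the log2 fold change, the level as CPM (read counts scaled to library size, averaged over the samples), the statistic of edgeR's likelihood ratio test with its p-value, and the FDR, given below as the adjusted p. Which group stands in the numerator is left unsaid. For TFDP1 the log2 fold change was 1.17 (2.25-fold) at 226 CPM, and its adjusted p was 1.08e-283. A fold change is therefore called positive below when it has the sign of TFDP1 and negative when it has the other sign, and a gene is called when the authors' FDR is under 0.05. The transcript of an edited gene need not fall, so TFDP1 does not settle which group is which. With no values per sample in use here, the spread between replicates could not be computed directly for any gene. The approximate standard error (SE) of a log2 fold change was taken as its size over the root of the likelihood ratio, and each interval (95%, approximate) spans 1.96 SE on either side. Of the markers of other cell types, 9 of 22 blood genes had a row, at a median of 0.542 CPM, with 1 called positive and 2 negative. The called counts were 1 positive and 5 negative of 7 fibroblast genes, 0 and 4 of 5 epithelial genes and 1 and 4 of 11 neuronal genes, and the part of these in the members' values was not tested.

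Most helicases of the family differed little between TFDP1 knockout and control cells. Of the 53 members, 17 were called in the authors' deposited table, 10 positive and 7 negative, or 32.1% against 39.5% of all rows (17.3% positive and 22.2% negative). No called member reached 1.5-fold, against 1474 of the 6244 called rows. DDX39A at 1.37-fold and DDX3X at 1.27-fold were the only called members at or above 1.2-fold. The median log2 fold change was 0.04 over the members and -0.03 over all rows, and the median size of a change was 1.09-fold against 1.16-fold. Changes above 0 were listed for 29 members and changes below 0 for 24.

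The calls lay among abundant members. The family had a median level of 98.0 CPM against 23.5 CPM for all rows, and 43 members lay at or above the latter. All 17 calls fell among these 43, which is 39.5% of them, beside 51.9% of all rows at such levels (25.4% positive and 26.5% negative). None of the 10 rarer members was called, and the lowest level of a called member was 37.6 CPM. Calls were rarer at low levels in the whole table too. There, 39.5% of all rows were called against 51.9% of those at or above the median level. For 24 of the 26 uncalled abundant members the whole interval lay within 1.2-fold of equality. The widest of the 26 reached 1.28-fold, for DHX35, and the narrowest 1.06-fold, for DDX42. The plot of fold changes by role shows the intervals of all members.

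**Figure D1:**
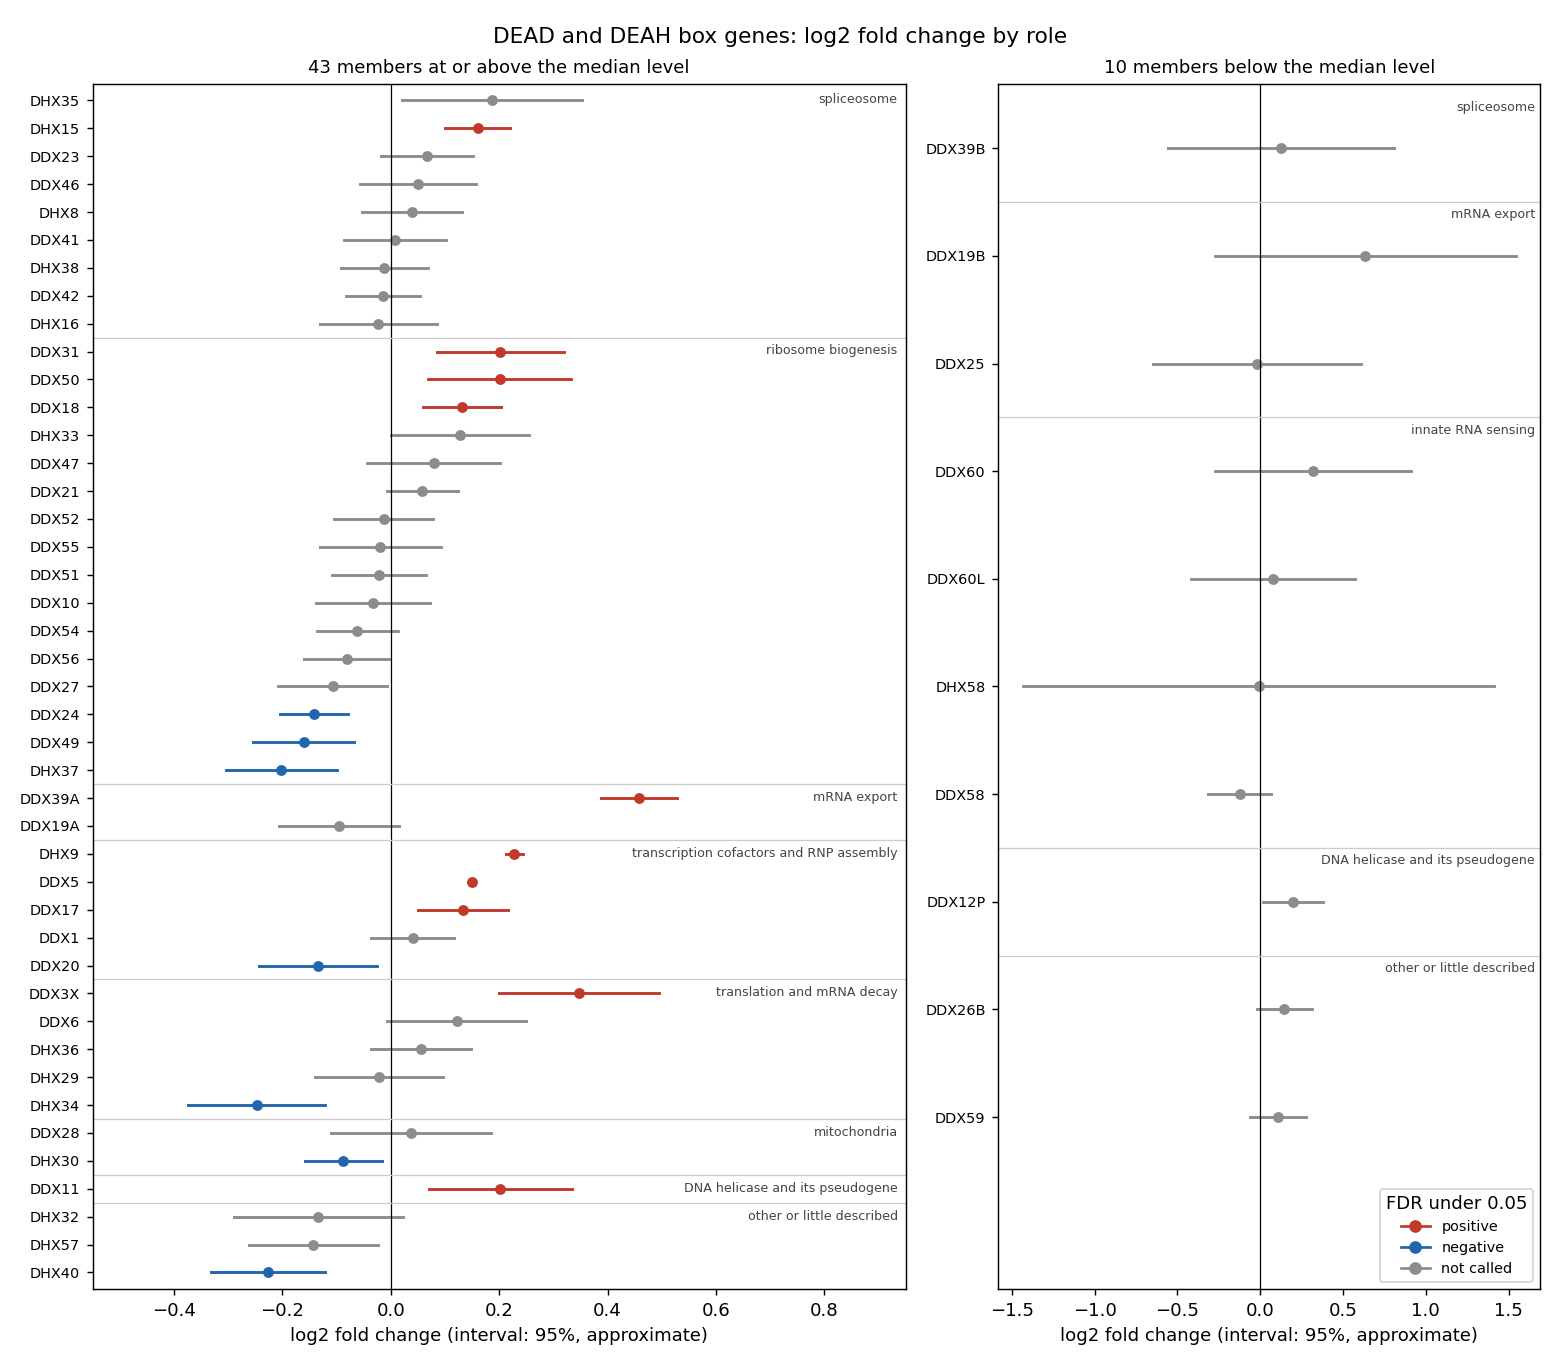
Log2 fold change of each member in the authors' deposited table (x axis, positive in the direction of TFDP1) with its approximate 95% interval, grouped by role, for the 43 members at or above 23.5 CPM (left) and the 10 below (right, on a wider axis). Red points are called positive, blue negative and grey not called; DDX39A at 0.46 lies farthest from 0 on the left, and no point on the right is called.

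Together the members accounted for 8920 CPM, 0.903% of the summed level of all rows. DDX5, DDX21, DDX3X and DHX9 held 34.1% of that. Per kilobase of merged exons, DDX21 stood at 158 CPM, DDX5 at 126, DHX9 at 108, DDX1 at 87.0 and DDX39A at 77.2. This scale is rough, since it depends on the exons annotated over all transcripts. DDX3X, at 703 CPM, had 44.2 per kilobase over 15892 merged bases, against 3840 merged bases for DDX39A. At the other end, DHX58 had 0.0660, DDX25 0.103, DDX19B 0.125, DDX39B 0.141, DDX60L 0.153 and DDX60 0.195 CPM per kilobase. These 6 were also the members below 2 CPM, and their intervals were the widest of the family. The plot of fold change against level places the family among all rows.

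**Figure D2:**
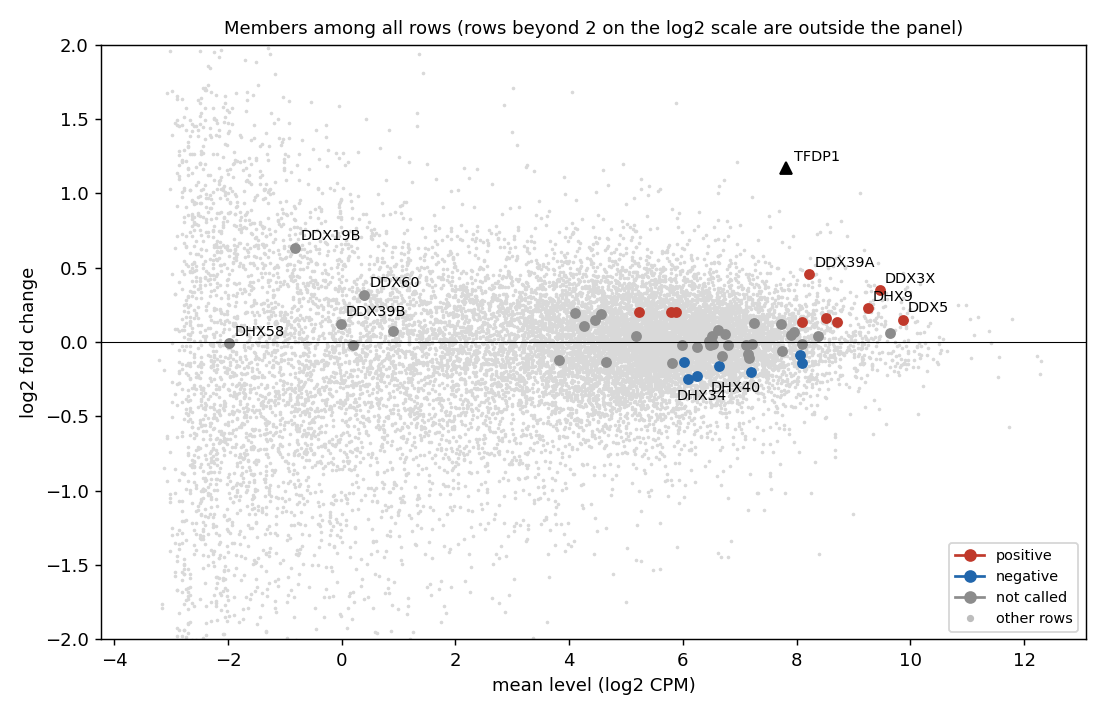
Log2 fold change (y axis) against mean level in log2 CPM (x axis) for all rows (pale grey) and the members (red called positive, blue called negative, dark grey not called), with TFDP1 as a black triangle. Called members sit at 37.6 CPM or more and close to 0 beside TFDP1 at 1.17, and DDX19B, the member farthest from 0 at 0.63, lies among rows of low listed level.

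Splicing helicases gave 1 call. Only DHX15, which frees the excised intron lariat and takes apart the spent spliceosome, was called among 10. That is 10.0%, beside 39.5% of all rows and 51.9% of those at or above the median level. The median log2 fold change of the group was 0.04. DHX15 had 365 CPM, a log2 fold change of 0.16 (interval 0.10 to 0.22) and an adjusted p of 1.59e-06. With length and GC trends removed its log2 fold change was 0.05 and the call was lost (adjusted p 0.213), while DDX23 became called at 0.11 (0.0292). DDX46, which acts at the branch site, was listed at 0.05, and DDX23, which hands the 5′ splice site from U1 to U6, at 0.07. DHX16, needed for activation before the first cut, had -0.02, DHX38, which remodels the complex for exon joining, -0.01, and DHX8, which releases the mRNA, 0.04. DDX42, a partner of the U2 particle, was at -0.01 and DDX41, a late spliceosome helicase mutated in myeloid disease, at 0.01. DHX35, found in the catalytic spliceosome, had 0.19 at 23.6 CPM and an adjusted p of 0.0757. DDX39B, which helps recruit the U2 particle, had 0.12 at 0.987 CPM (adjusted p 0.832).

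Calls in ribosome biogenesis, the largest group, were split by direction. Of 16 nucleolar members, all at 55.3 CPM or more, 3 were called positive, 3 negative and 10 not, with a median of -0.02. The share called was 37.5%, below the 51.9% of all rows at or above the median level. DDX18, which acts on the large subunit precursor, had 0.13 at 275 CPM (adjusted p 0.00169), DDX31 0.20 at 55.3 CPM (0.00339) and DDX50 0.20 at 58.6 CPM (0.0104). On the negative side, DHX37, which pulls the U3 RNA off the small subunit precursor, had -0.20 at 147 CPM (adjusted p 6.56e-04). DDX24 had -0.14 at 272 CPM (6.82e-05) and DDX49 -0.16 at 99.0 CPM (0.00325). The calls of DDX18, DHX37 and DDX49 were lost when length and GC trends were removed, and those of DHX37, DDX24 and DDX49 on the ribosomal protein centre described below. The 2 directions thus occurred within the same pathway and at similar sizes, between 1.10-fold and 1.15-fold.

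The most abundant nucleolar helicase was not called as deposited. DDX21, which couples ribosomal RNA transcription and processing, was listed at 795 CPM with 0.06 (interval -0.01 to 0.12, adjusted p 0.183). DHX33 had 0.13, DDX47 0.08, DDX52 -0.01, DDX55 -0.02, DDX51 -0.02, DDX10 -0.03, DDX54 -0.06, DDX56 -0.08 and DDX27 -0.11. Among these, DHX33, DDX56 and DDX27 had unadjusted p-values of 0.0481, 0.0460 and 0.0349 that did not pass adjustment. Re-centring on the median of all rows made DDX21 (0.08, adjusted p 0.0340) and DHX33 (0.0449) positive calls. On the ribosomal protein centre DDX21 (0.15, 5.81e-05), DHX33 (0.00278) and DDX47 (0.0189) were called positive. Without length and GC trends DDX21 had -0.05 (0.233), and DDX10 (0.00244), DDX52 (0.00222) and DDX27 (0.0496) were called negative. Of the exonic bases of DDX47, 36.5% also belong to another gene model on the same strand, so its count is uncertain.

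In mRNA export 1 of 4 members was called, DDX39A. It loads export factors onto mRNA and lies at chr19:14408819-14419383 (minus strand, protein coding). It was listed at 297 CPM with a log2 fold change of 0.46 (interval 0.39 to 0.53) and an adjusted p of 1.80e-35. This was the largest change of any called member, although 2072 called rows of the table changed by more. DDX19A, which strips export factors from mRNA at the nuclear pore, was at -0.10 and 103 CPM (adjusted p 0.199). Its near copy DDX19B had 0.63 at 0.565 CPM (interval -0.27 to 1.54, adjusted p 0.317), the largest change of any member and the only one over 1.5-fold. Of the exonic bases, 23.8% in DDX19A and 15.7% in DDX19B also belong to other gene models on the same strand. The levels of both are therefore uncertain. DDX25, the testis relative of DDX19, had -0.02 at 1.15 CPM.

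Among 5 cofactors of transcription and assembly factors of RNA-protein particles, 4 were called, 3 positive and 1 negative, a small group beside the 51.9% of all rows called at such levels. DDX5, also known as p68, was the most abundant member at 931 CPM and had 0.15 with its adjusted p listed at 0. Its paralogue DDX17, or p72, had 0.13 at 417 CPM (adjusted p 0.00711). DHX9, also called RNA helicase A, had 0.23 at 608 CPM (adjusted p 4.13e-182). DDX20, the Gemin3 subunit of the SMN complex that builds spliceosomal particles, was negative at -0.13 and 64.6 CPM (0.0458). DDX1, part of the tRNA ligase complex, had 0.04 at 333 CPM. The call of DDX17 was lost without length and GC trends (0.703), and that of DDX20 on both other centres (0.104 and 0.549) and with raised standard errors (0.0655). The 3 positive members were thus all abundant and changed by 1.10-fold to 1.17-fold.

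Translation and decay held the other larger positive change. DDX3X, which helps ribosomes scan structured 5′ leaders, lies at chrX:41333284-41364472 on the plus strand and was listed at 703 CPM with 0.35 (interval 0.20 to 0.49, adjusted p 3.11e-05). Without length and GC trends it had 0.17 and the call was lost (adjusted p 0.0530). DHX34, which acts with UPF1 in nonsense-mediated decay, lies at chr19:47349281-47382704 on the plus strand and had -0.25 at 67.7 CPM (interval -0.37 to -0.12, adjusted p 6.41e-04), the largest negative change of the family. DDX6, which represses translation and promotes decapping, had 0.12 at 213 CPM (adjusted p 0.149). DHX36, which opens G-quadruplexes, was at 0.05 and DHX29, a scanning factor on the small subunit, at -0.02. DDX3Y was not analysed here.

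The remaining members gave 3 calls. These were 1 of 2 mitochondrial members, 1 of the 2 rows of a DNA helicase and its pseudogene, and 1 of 5 others. Such small groups stand beside 39.5% of all rows called and 51.9% of those at or above the median level. DHX30, which assembles the mitochondrial ribosome, had -0.09 at 267 CPM (adjusted p 0.0475), and DDX28, with the same role, 0.04 at 36.0 CPM. The call of DHX30 was lost in 4 of 7 alternatives that kept the threshold of 0.05 and set no minimum size, and its sign turned in 2 of them (0.0017 on the ribosomal protein centre and 0.0034 without length and GC trends). DHX40, whose function is little described, had -0.23 at 75.5 CPM (interval -0.33 to -0.12, adjusted p 1.57e-04). DDX11, a DNA helicase of sister chromatid cohesion that shares the DDX name but carries a DEAH box, had 0.20 at 37.6 CPM (adjusted p 0.0103). Its pseudogene DDX12P had 0.20 at 17.1 CPM (0.0910), and reads from stretches that are identical in these 2 loci cannot be told apart. DHX57 had -0.14 with an adjusted p of 0.0566, DHX32 -0.13, DDX59 0.11 and DDX26B 0.15. DDX12P became a positive call on both other centres (0.0431 and 0.00665) and without length and GC trends (0.00475). On the ribosomal protein centre DDX26B did too (0.0145). Without length and GC trends DHX57 (3.87e-04) and DHX32 (0.0484) were called negative. DHX57 was also called with the adjustment recomputed (0.0485) and at or above 1 CPM (0.0423). DDX26B is the older name of INTS6L, a relative of an Integrator subunit. The germline genes DDX4, DDX43 and DDX53 were not analysed here.

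None of the 4 sensors of foreign RNA was called, beside 39.5% of all rows, and all lay below the median level of 23.5 CPM. DDX58, which encodes RIG-I, had -0.12 at 14.2 CPM (interval -0.32 to 0.07), and its relative DHX58, which encodes LGP2, -0.01 at 0.254 CPM, the lowest level of the family. The interferon-inducible DDX60 had 0.32 at 1.31 CPM and DDX60L 0.08 at 1.86 CPM. The interval of DHX58 ran from -1.43 to 1.41, so its farther end, on the negative side, was a 2.70-fold difference.

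Paralogues set side by side did not share one pattern. DDX5 and DDX17 were both positive, at 0.15 and 0.13. DDX50 was called at 0.20 while its neighbour on chromosome 10, DDX21, had 0.06, with intervals of 0.07 to 0.33 and -0.01 to 0.12 that overlap. DHX9 at 0.23 and DHX57 at -0.14 had opposite signs, and their intervals, 0.21 to 0.24 and -0.26 to -0.02, did not overlap. DHX36 and DHX29 were both close to 0. DDX39A at 297 CPM and DDX39B at 0.987 CPM differed most in level, 77.2 against 0.141 CPM per kilobase. The fold change of DDX39B was 0.12, with an interval of -0.56 to 0.81. Of the exonic bases of DDX39B, 30.8% also belong to other gene models on its strand, and reads there cannot be assigned to it alone, so its level is uncertain. The differences between paralogues were not tested, since values per sample were not used here.

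The precision listed for DDX5 and DHX9 was unlike that of other members. The SE of DDX5 was 0.00336 and that of DHX9 0.00786, which is 8.10% and 18.2% of the median SE of the rows nearest in level. Only 14 rows of the whole table had an SE under 20% of that median, all at 556 CPM or more, and the lowest ratio among the other members was 0.729. With every SE below the median at its level raised to that median, an alternative chosen after seeing the data, the adjusted p became 0.00133 for DDX5 and 1.18e-06 for DHX9, and both stayed called. The same step ended the calls of DDX20 (0.0655) and DHX30 (0.114). DDX3X went the other way, with an SE of 0.0753 that was 1.74 times the median at its level. No other row at or above its level had a ratio as high, since the share with such a ratio, 0.826%, is DDX3X itself. DDX3X therefore had a larger fold change than DHX9 but a far larger adjusted p. The plot of SE against level shows DDX5 and DHX9 below, and DDX3X above, the running median.

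**Figure D3:**
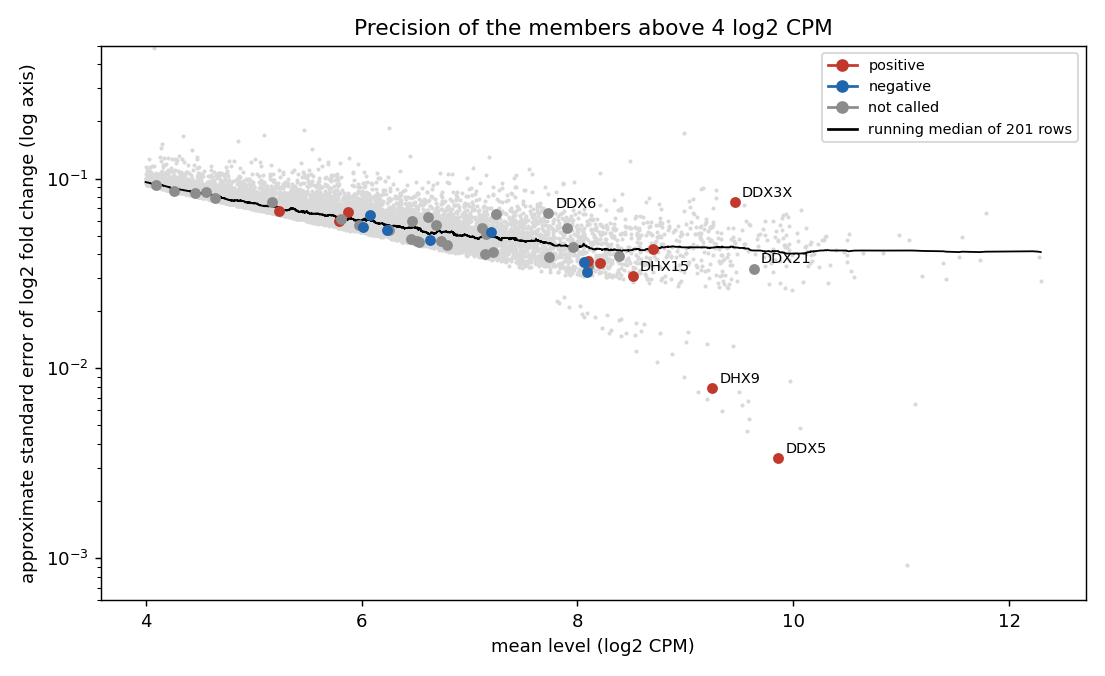
Approximate standard error of the log2 fold change (y axis, log scale) against mean level in log2 CPM (x axis) for rows above 4 log2 CPM, with the running median over rows as a black line. DDX5 and DHX9 lie far below the line at 0.00336 and 0.00786, and DDX3X lies above it at 0.0753.

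Genes that work with these helicases were compared as lists chosen by function. Of 19 RNA helicases with other names, 4 were called positive and 5 negative, with a median of -0.02. The share called was 47.4%, beside 39.5% of all rows and 51.9% of those at or above the median level. MOV10, a helicase of silencing complexes, had -0.44 (adjusted p 7.26e-17), the interferon-related HELZ2 -0.48 (4.69e-08) and DICER1, the microRNA-processing nuclease, 0.35 (6.64e-06). The largest changes of this list thus exceeded 1.2-fold in both directions, whereas no negative member of the DEAD and DEAH box set did. G-patch proteins, which activate DEAH box helicases, gave 5 positive and 1 negative call among 23 (26.1%, below both shares of all rows), with a median of 0.03. RBM10 had 0.25 (1.57e-07), GPATCH11 0.39 (5.84e-07) and RBM17 0.18 (1.02e-04).

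Proteins that bind DEAD box cores had 12 positive and 2 negative calls among 26, or 53.8% called, and a median of 0.11. All 26 lay at 30.3 CPM or more, where the share of all rows called at or above the median level, 51.9%, is the one to compare. EIF4G2 had 0.16 with its adjusted p listed at 0. EIF4G1, the scaffold that holds the helicase eIF4A, had -0.06 with an adjusted p of 4.57e-31. Both had levels over 1000 CPM. Their SEs were 2.21% (EIF4G2) and 12.1% (EIF4G1) of the median at their level, unusually low like those of DDX5 and DHX9. The log2 fold change of EIF4G1 was -0.0584, beside a median SE of 0.0403 at its level. PATL1, a decapping factor that binds DDX6, had 0.30 (1.03e-07). CNOT1, which also binds DDX6, had 0.30 (6.42e-06), and ALYREF, which works with DDX39A and DDX39B, 0.21 (0.00310); these last 2 were named after their values were seen. The plot of the 4 lists shows that members and partners overlapped widely, and no difference between lists was tested.

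**Figure D4:**
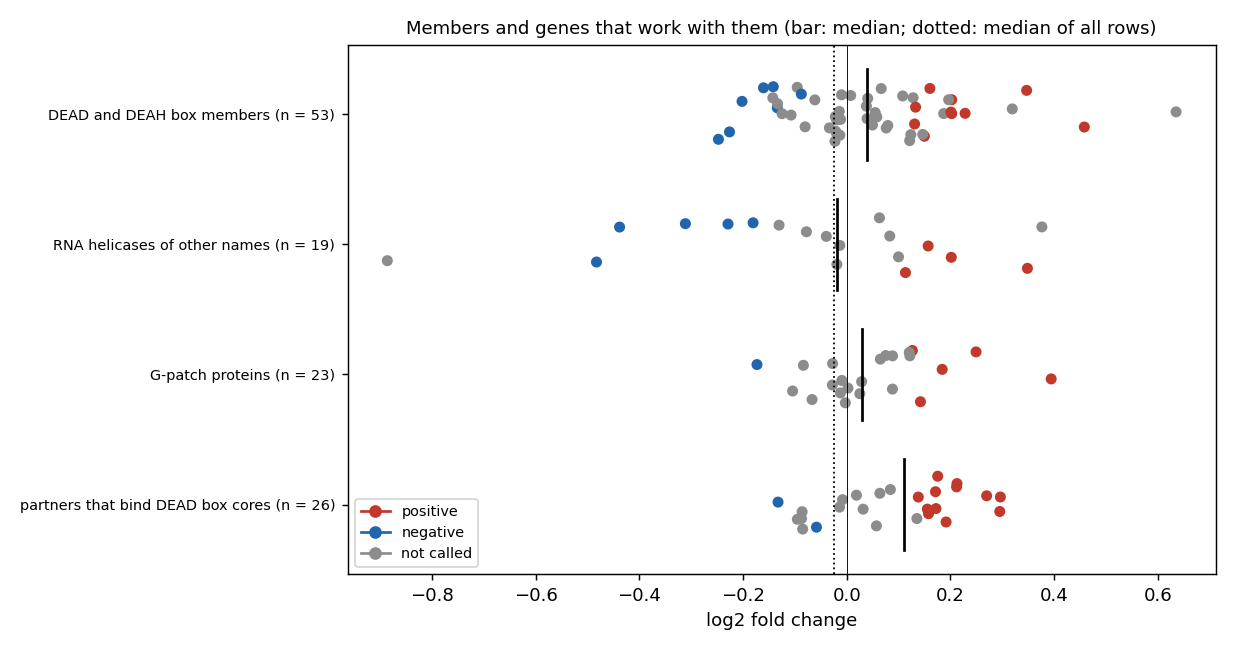
Log2 fold change (x axis) of the 53 members, 19 RNA helicases of other names, 23 G-patch proteins and 26 partners of DEAD box cores, with each point a gene (red called positive, blue negative, grey not called; vertical scatter is for display). Black bars mark the list medians, 0.04, -0.02, 0.03 and 0.11, beside the dotted median of all rows at -0.03.

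Because DP1 acts with E2F at promoters, the letters of E2F sites were looked for in RefSeq promoters on GRCh38.p14, which run from 250 bases before to 50 after a start and matched 47 of the 53 members by symbol or synonym. The letters TTTGGCGC, TTTCGCGC, TTTCCCGC or TTTGCCGC occurred on either strand in a promoter of 5 members. The 5 matches are shown on the strand of the gene, 5′ to 3′, with the matching letters in capitals as their reverse complement.
DDX11: gcccgtccggaGCGGGAAAacattccggaa
DDX20: ttagtgtcttcGCGGGAAAactgccaataa
DDX46: ctttggctctgGCGCGAAAcaccctcacgg
DHX37: cccgcccctcaGCGGCAAAgtcagttacag
DHX40: cgtggcagttgGCGGGAAAtccctgggggg
They lie at chr12:31074099-31074128 (plus strand) for DDX11, chr1:111755823-111755852 (plus) for DDX20, chr5:134758549-134758578 (plus) for DDX46, chr12:124989147-124989176 (minus) for DHX37 and chr17:59565462-59565491 (plus) for DHX40. The matches began 155, 67, 219, 34 and 137 bases before the annotated starts of DDX11, DDX20, DDX46, DHX37 and DHX40. The share of members with a match was 10.6%, beside 6.40% of the 11251 genes of the table with a promoter, and by window 5 of 62 (8.06%) beside 3.31% of all 35116 promoters. By call, matches were found in 1 of 9 positive members (DDX11), 3 of 6 negative members (DDX20, DHX37 and DHX40) and 1 of 32 uncalled members (DDX46). The letters were thus found in members of either direction, and a match is a description of sequence only.

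Letters of 2 other promoter elements were counted in the same way. The cell cycle element TTTGAA was found in 5 of 47 members (10.6%, beside 13.9% of the genes of the table): DDX10, DDX20, DDX21, DDX26B and DHX16. These were 0 of 9 positive, 1 of 6 negative and 4 of 32 uncalled members. The E-box CACGTG was found in 10 of 47 (21.3%, beside 12.3%), among them DDX5 and DDX31 of the positive and DHX34, DHX37 and DHX40 of the negative members. In DDX20, DHX37 and DHX40, which held an E2F match and 1 of these motifs, the 2 matches shared no base.

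Several members share a promoter region with a gene on the opposite strand, and 11 such neighbours with a row start within 1000 bases. DDX31 (0.20) and GTF3C4, a subunit of an RNA polymerase III factor that starts 366 bases away, were both called positive, the latter at 0.22 (adjusted p 0.00124). DDX49 (-0.16) and COPE, a coatomer subunit 278 bases away, were both negative, COPE at -0.24 (2.40e-05). DDX24 (-0.14) and IFI27L1, 37 bases away, were called in opposite directions, IFI27L1 at 0.42 and 5.09 CPM (0.0304). DDX11 (0.20) was called while the antisense DDX11-AS1 was not (0.00), and without a stated strand setting reads in the shared bases cannot be told apart. RITA1 beside the uncalled DDX54 was negative at -0.18 (0.00874), and AARS beside DDX19B was positive at 0.12 (0.00367). The neighbours of DDX25, DDX51, DHX32, DHX38 and DHX57 were not called, nor were these members. DDX31 with GTF3C4, DDX11 with DDX11-AS1 and DHX38 with TXNL4B overlap at their starts, while the other pairs lie apart. Of the exonic bases, 6.62% in DDX31 and 12.2% in DHX38 also belong to gene models on the other strand. These neighbours were picked by distance alone, and a nearby start on the opposite strand did not go with one direction.

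The balance of directions, among the members and over all rows, depended on where 0 was placed. As deposited, 58.8% of the member calls were positive, beside 43.9% of the calls over all rows. When all fold changes were re-centred on the median of all rows, which was -0.03, 14 members were called positive and 5 negative. That is 73.7% positive, beside 49.9% over all rows. When the fold changes were re-centred on the 79 cytosolic ribosomal protein genes, whose median was -0.09, the counts were 22 and 2. The positive share was 91.7%, beside 63.8% over all rows. When trends with transcript length and GC content were removed, the counts were 8 and 11 (42.1%, beside 40.4% over all matched rows). Whether the authors scaled the libraries by human or by S2 reads is not stated in the sources used here. DDX5, DHX9, DDX39A, DDX31, DDX11 and DDX50 stayed positive, and DHX34 and DHX40 negative, in each alternative at a threshold of 0.05 that included them, except that a minimum size of 1.2-fold kept DDX39A alone of these 8. Removing length and GC trends ended 7 calls, those of DDX3X (adjusted p 0.0530), DHX15 (0.213), DDX17 (0.703) and DDX18 (0.966) on the positive side and DHX37 (0.0786), DHX30 (0.956) and DDX49 (0.978) on the negative side. The bar plot of calls by processing choice gives both counts for each setting.

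**Figure D5:**
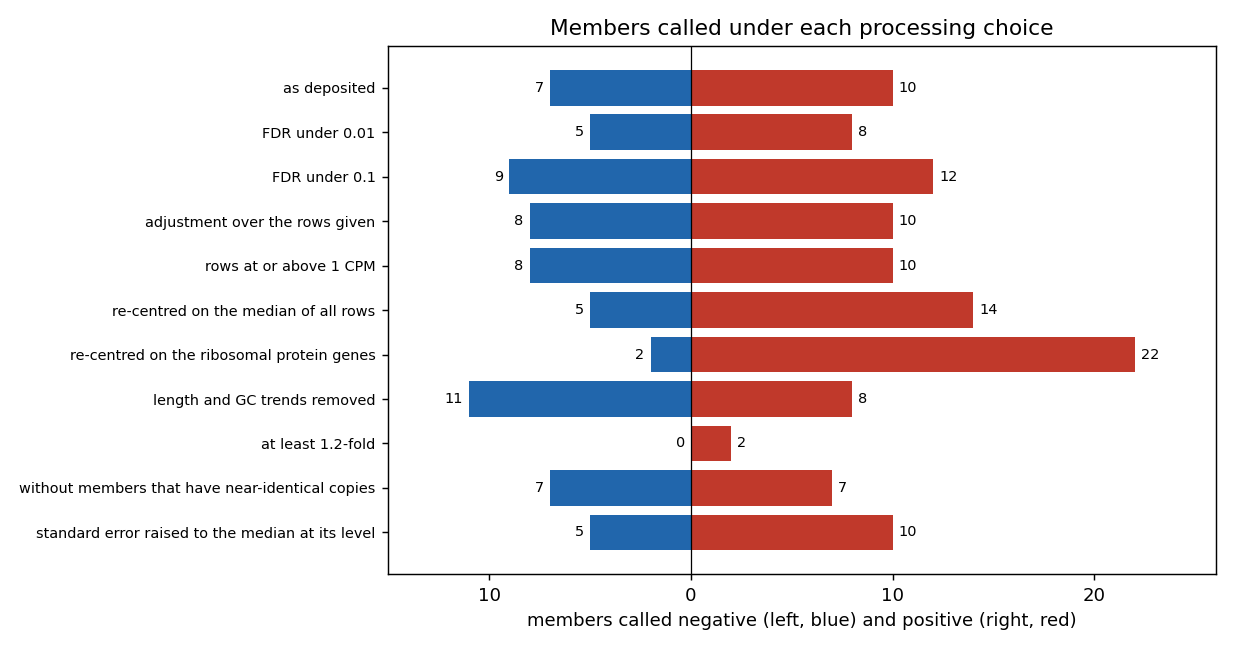
Number of members called negative (blue bars, left of 0) and positive (red bars, right of 0) under each processing choice (y axis). The counts run from 10 positive and 7 negative as deposited to 22 and 2 after re-centring on the ribosomal protein genes and 8 and 11 after removing length and GC trends.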

How the data were processed

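The members and gene lists were chosen with earlier results of these data known. RNA was selected for poly(A) and libraries were made with a NEBNext kit for the HiSeq4000, per the labels' protocols. Tools named without version in the submitters' processing notes are Trimmomatic, HISAT2, featureCounts and edgeR, with hg38 and dm6 as builds. Neither the strand setting nor the scaling of libraries is stated in the sources used here. The authors deposited 1 table of log2 fold changes and log2 CPM levels. Its other columns are, per the file headers, a likelihood ratio, which is a score for each gene, and the p-value and FDR from it. The depth of the libraries is unknown, which limits any statement on rare transcripts to the intervals given.

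From these values, levels were converted to CPM, and approximate SEs, 95% intervals and medians were computed. No new test across samples was made, and every call is the authors' FDR under 0.05. For re-centring, removal of length and GC trends and raised standard errors, p-values were recomputed from the SE. They were adjusted by the Benjamini-Hochberg method over all rows, or over the 15274 rows matched for length and GC. The authors' p-values were re-adjusted in the same way over the rows given and over the 12949 rows at or above 1 CPM. The other alternatives kept the authors' FDR. Trends were fitted by lowess with a span of 0.3. The recomputation of p-values was also run on simulated fold changes drawn with these same SEs. That run cannot show whether the approximate SE itself is right. Every member is named, and called members get level, fold change and adjusted p. Also named are the 3 called genes of each companion list with the smallest p, TFDP1, and the members with the highest level, the lowest level and the largest change. Gene models came from GENCODE 29 by symbol and, for DDX26B, by its newer name INTS6L. CPM per kilobase uses merged exons of all transcripts. Motif II was searched in translated GENCODE transcripts, in place of the protein sequences planned, as D, E, any residue and D or H after mostly hydrophobic residues. Where a protein had 2 matches (DDX17, DDX39A, DDX39B and DHX8), the one reading DEAD or DEAH was taken, or otherwise the one nearest the start. It was not checked against protein annotation, and the identity of paralogous proteins was not computed. Promoters were those of RefSeq; DDX12P, DDX18, DDX49, DDX52, DHX33 and DHX58 were not matched. Python 3.11.15 with pandas 2.3.3, numpy 2.4.6, scipy 1.17.1, statsmodels 0.14.6 and matplotlib 3.10.9 was used.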

Additional observations from a re-analysis of the deposited data

How the results depend on the processing

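No paired analysis was possible because the deposited table holds no values per sample, although the replicate numbers 1 to 3 occur in both groups; for the same reason, leaving out replicates, a replicate block and another normalization of counts were not run. The count of 10 positive and 7 negative members became 8 and 5 at an FDR under 0.01, 12 and 9 under 0.1, and 10 and 8 both with the adjustment recomputed over the rows given and with only rows at or above 1 CPM. The share of all rows called was 39.5% as deposited, 30.5% under 0.01 and 45.1% under 0.1. It was 40.7% with the adjustment recomputed and 47.7% of the rows at or above 1 CPM. Another alternative left out members listed by hand as having a close paralogue or pseudogene copy. They were DDX3X, DDX11 with DDX12P, DDX19A with DDX19B, DDX39A with DDX39B, and DDX60 with DDX60L. How alike these copies are was not computed, and the lines printed above for DDX39A and DDX39B differ. Leaving them out removed the positive calls of DDX39A, DDX3X and DDX11. The counts were then 7 and 7, and the median log2 fold change was -0.01 in place of 0.04. Re-centring on the ribosomal protein genes gave 22 positive and 2 negative members and a median of 0.13, and re-centring on the median of all rows 14 and 5 with a median of 0.06. Over all rows, 43.2% and 40.9% were called on these centres, of which 63.8% and 49.9% were positive. Removing length and GC trends gave 8 and 11 with a median near 0 (0.0034), beside 38.5% of the matched rows called. With a minimum size of 1.2-fold, 2 positive and 0 negative members were called, by construction of that limit, beside 25.7% of all rows. With the standard error raised to the median at its level, added after seeing the data, the counts were 10 and 5, and DDX20 (adjusted p 0.0655) and DHX30 (0.114) were no longer called. Of the 17 calls, 15 were kept after centring on the median of all rows, 12 on the ribosomal protein genes, 10 without length and GC trends and 15 with the raised standard error. Changed signs among called members were DHX30 at 0.0017 on the ribosomal centre, and DDX49 at 0.0023 and DHX30 at 0.0034 without length and GC trends; the cause was not tested. Centring on the ribosomal protein genes also ended the calls of DDX20, DDX24, DDX49 and DHX37, and removing length and GC trends that of DHX37 (0.0786). Members below 2 CPM had approximate standard errors that only changes much larger than those of abundant members could exceed.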
